A study of Homo sapiens with 4 samples.

Results

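The 9 genes described here encode the signalling chains of the T cell receptor and the proteins that act next to it: CD3D, CD3E, CD3G, CD247, CD2, CD5, LCK, ZAP70 and LAT. They were chosen by name, and all 9 were found among the 58735 genes of the deposited table. The data are RNA-seq counts from SUP-M2, an established human line of anaplastic large cell lymphoma, a lymphoma of mature T cell origin. SUP-M2 belongs to the form of the disease driven by an ALK fusion kinase. Its 4 libraries fall into 2 groups. Those labelled shscramble (2 libraries) carried a scrambled short hairpin RNA and had the genotype label control. Those labelled shGOLM1 (2 libraries) carried hairpins against GOLM1, a gene for a Golgi membrane protein, and had a genotype label that calls them a knockout. All 4 come from 1 cell line, and neither the hairpin sequences nor separate cultures are stated for the replicates, so a p-value here reflects no more than how far these libraries vary, and that variation may be technical.

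In a T cell, the receptor chains that recognise antigen have almost no cytoplasmic part and signal through the CD3 delta, epsilon, gamma and zeta chains. The kinase LCK phosphorylates tyrosine motifs in those chains, ZAP70 binds the phosphorylated motifs, and ZAP70 then phosphorylates the scaffold LAT, on which the downstream signalling proteins gather. All CD3 chains are needed for a complete receptor to reach the surface. Anaplastic large cell lymphoma is known for frequent loss of the receptor and of CD3 despite its T cell origin, with CD4, CD2 or cytotoxic granule proteins often kept.

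The targeted gene GOLM1 had 212 and 213 CPM in shscramble against 69.6 and 69.5 CPM in shGOLM1, where CPM are counts scaled to each library's total after TMM adjustment. Its log2 fold change was -1.61, at adjusted p = 0.42 in edgeR's quasi-likelihood test (unadjusted p = 0.00287), which called 0 genes in all. The adjusted p was 0.0111 in edgeR's likelihood-ratio test, 0.0502 in DESeq2 and 0.455 in limma-voom. In the authors' deposited table it was 0.0531. Library totals ran from 27544171 to 31972153 counts. A gene with 0 counts may still have a level of up to 3 counts (0.0938 to 0.109 CPM of the unadjusted totals), a limit for counting error only. The shGOLM1 libraries stood apart from each other. Across the 14166 genes tested, which are not independent replicates, the correlation of log2 CPM was 0.989 within the shscramble pair and 0.873 within the shGOLM1 pair. In shGOLM1 replicate 2, 0.455% of counts were mitochondrial, against 1.95% to 2.38% in the other libraries. Of 9 lymphoma markers, 8 reached 1 CPM and CCR4 had 0 counts. TNFRSF8, which encodes CD30, was at 634, 614, 539 and 88.4 CPM in shscramble replicates 1 and 2 and shGOLM1 replicates 1 and 2, and ALK at 340, 316, 327 and 170 CPM, with shGOLM1 replicate 2 lowest for both. That library was instead highest for IL2RA (476, 469, 345 and 599 CPM) and STAT3 (267, 279, 293 and 297 CPM).

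The label of a T cell receptor complex did not hold for the whole set in these cells. Of the 9 genes, 3 were at or under 3 counts in every library. Another 3 exceeded 3 counts in at least 1 library but were under 1 CPM in every library. The last 3 reached 1 CPM in at least 1 library. The genes not detected were CD3E, CD3G and CD5. Those detected at a trace were LCK, ZAP70 and LAT. Those with transcripts at 1 CPM or more were CD247, CD3D and CD2, although CD3D was under 1 CPM in shGOLM1 replicate 1. In bulk RNA, fewer cells of a type and less RNA per cell cannot be told apart. Among all 19951 protein-coding genes of the table, 33.6% were at or under 3 counts in every library, 11.2% were low by the same limits and 55.2% reached 1 CPM. The share of the 9 genes that was not detected is therefore near that of coding genes at large, and the split within the receptor complex is described below gene by gene.

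**Figure D1:**
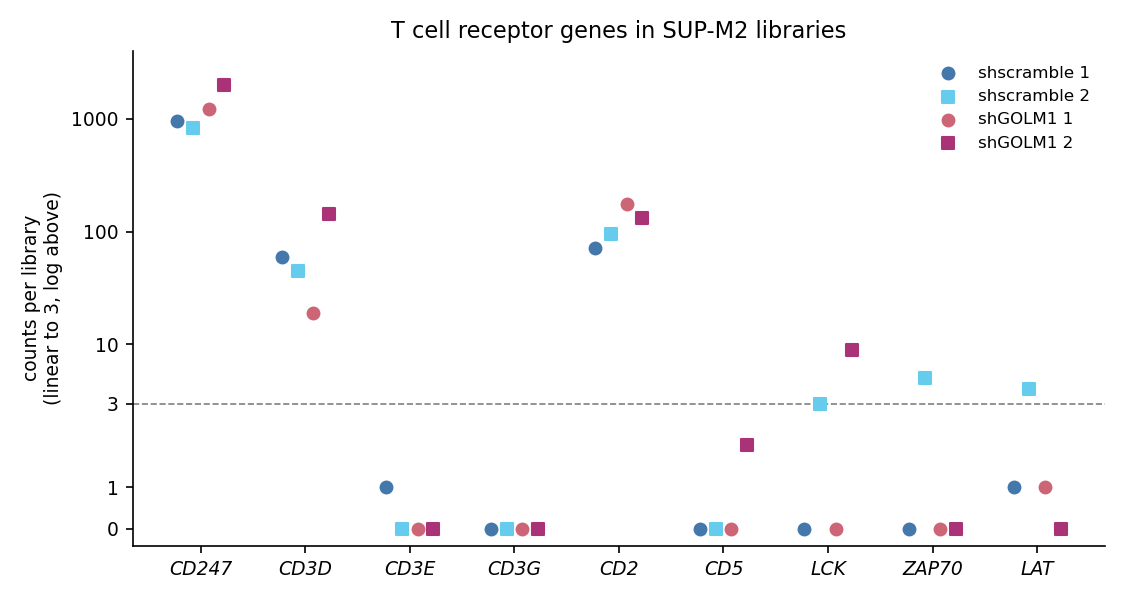
Counts of the 9 genes in each library, on an axis that is linear up to 3 counts and logarithmic above, with blue points for shscramble, red and purple points for shGOLM1, and a dashed line at 3 counts. CD247 has 824 to 1995 counts, CD3D and CD2 have 19 to 176, and the other 6 genes have 0 to 9 in every library.

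The CD3 chains were divided between detected and undetected genes. CD247 (ENSG00000198821, chromosome 1, 167430640 to 167518610, GRCh38) encodes the zeta chain, which carries most of the tyrosine motifs of the receptor. It had 959 and 824 counts in shscramble and 1216 and 1995 in shGOLM1. CD247 was the highest of the 9 in every library, and its mean level per length was above that of 81.0% of coding genes. CD3D (ENSG00000167286, chromosome 11, 118338954 to 118342744) encodes the delta chain, which pairs with epsilon. It had 60 and 45 counts in shscramble and 19 and 142 in shGOLM1, so the 2 shGOLM1 libraries lay on opposite sides of both shscramble libraries. CD3E (ENSG00000198851, chromosome 11, 118304545 to 118316175), whose epsilon chain pairs with both delta and gamma, had 1 count in shscramble replicate 1 and 0 in the other 3 libraries. CD3G (ENSG00000160654, chromosome 11, 118344344 to 118355161), which encodes gamma, had 0 counts in all 4. Scaled by length and with 3 counts per library as the floor for CD3G, CD247 was at least 304-fold and at least 261-fold higher than CD3G in shscramble replicates 1 and 2. The same bound was 385-fold and 632-fold in shGOLM1 replicates 1 and 2.

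CD3E, CD3D and CD3G lie side by side on chromosome 11, so the undetected and the detected genes share a neighbourhood. The annotated starts of CD3D and CD3G, which run in opposite directions, are 1600 bases apart, and that of CD3E is 38199 bases from the start of CD3D. Of the other coding genes within 100 kb of the cluster, MPZL3, UBE4A, ATP5MG and KMT2A reached 1 CPM, AP001267.5 was low (0, 0, 0 and 14 counts), and JAML and MPZL2 were not detected. UBE4A, the nearest on the CD3G side, had 2021, 2362, 3292 and 608 counts in shscramble replicates 1 and 2 and shGOLM1 replicates 1 and 2. Around all 9 genes, 24 of 36 distinct coding neighbours within 100 kb (66.7%) reached 1 CPM, against 55.2% of all coding genes. No annotated gene overlaps CD3D, CD3E or CD3G on either strand.

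**Figure D2:**
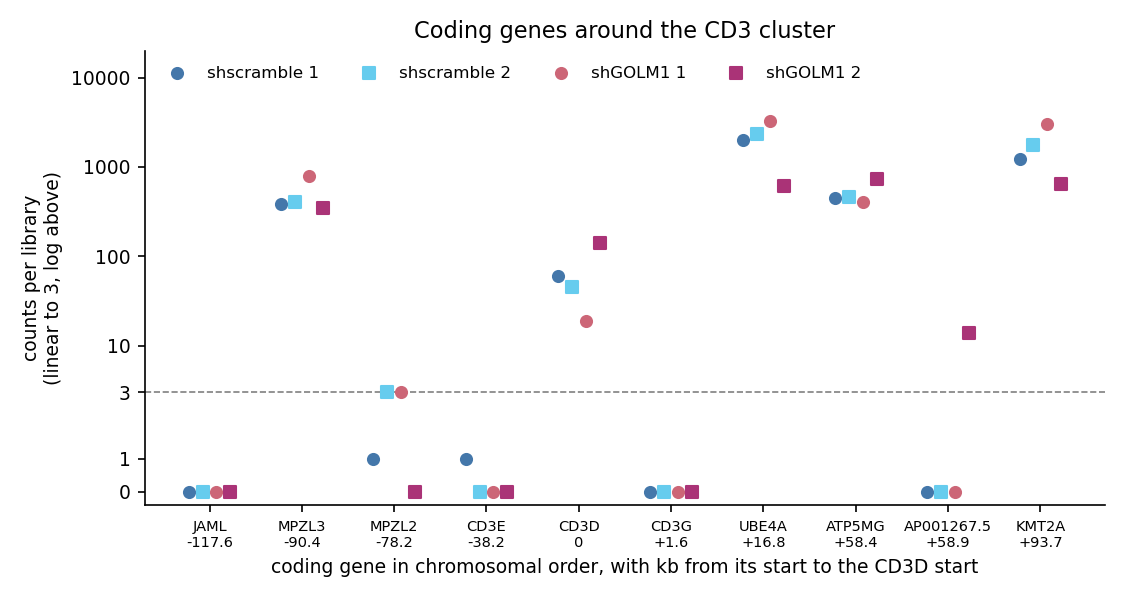
Counts per library of the coding genes around the CD3 cluster in chromosomal order, with the distance in kb from the start of each gene to that of CD3D under its name, and a dashed line at 3 counts. CD3D has 19 to 142 counts between CD3E, with at most 1, and CD3G, with 0, while UBE4A beyond CD3G has 608 to 3292.

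CD2 and CD5 are surface proteins of T cells outside the receptor itself. CD2 (ENSG00000116824, chromosome 1, 116754385 to 116769228) is an adhesion and costimulatory receptor that binds CD58. It had 71 and 95 counts in shscramble and 176 and 132 in shGOLM1, and on the CPM scale both shGOLM1 libraries lay above both shscramble libraries. CD5 (ENSG00000110448, chromosome 11, 61102395 to 61127852), an inhibitory receptor of T cells, had 0 counts in 3 libraries and 2 counts in shGOLM1 replicate 2. VPS37C, 2404 bases from CD5, had 578, 534, 399 and 410 counts in the same order of libraries. CD58, the ligand of CD2, had 14.4 and 14.8 CPM in shscramble against 6.6 and 6.9 CPM in shGOLM1 (adjusted p = 0.42 in edgeR's quasi-likelihood test). Of all genes tested, 26.5% lay lower in both shGOLM1 libraries, as CD58 did, and 25.2% higher in both, as CD2 did.

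The 3 proximal signalling proteins had only traces of RNA. LCK (ENSG00000182866, chromosome 1, 32251239 to 32286165), the Src family kinase that starts receptor signalling, had 0 and 3 counts in shscramble and 0 and 9 in shGOLM1. ZAP70 (ENSG00000115085, chromosome 2, 97713560 to 97739862), the kinase that binds the phosphorylated chains, had 5 counts in shscramble replicate 2 and 0 in the other 3 libraries. LAT (ENSG00000213658, chromosome 16, 28984826 to 28990783), the scaffold, had 1 and 4 counts in shscramble and 1 and 0 in shGOLM1. The highest value of any of them was 0.395 CPM, for LCK in shGOLM1 replicate 2. The gene AC109460.3 overlaps LAT on the same strand and had 4, 9, 10 and 48 counts, so the few LAT reads are not assigned with certainty. The coding gene nearest LCK, FAM167B at 2383 bases, had 0 counts in all 4 libraries, and the next, HDAC1 at 5921 bases, had 5118, 5042, 3705 and 5675. The nearest to ZAP70, C2orf92, had 3, 9, 33 and 24 counts, and the nearest to LAT, SPNS1, had 12, 14, 29 and 27.

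The stretches before the annotated starts are shown for the 3 members at 1 CPM or more and for LCK and ZAP70, since these place the transcribed and the near-silent genes side by side. They come from the RefSeq promoter table on GRCh38.p14, which held 6 of the 9 genes, and each runs 5′ to 3′ on the gene's own strand and ends before the first annotated exon. LCK has a distal and a proximal promoter, and both are given. Both windows of LAT lie on annotated exons from their first base and are not printed. Capitals mark the core of ETS factor sites, GGAA, and the RUNX letters TGTGGT, on either strand.
CD247 (chr1:167518611-167518779, minus strand): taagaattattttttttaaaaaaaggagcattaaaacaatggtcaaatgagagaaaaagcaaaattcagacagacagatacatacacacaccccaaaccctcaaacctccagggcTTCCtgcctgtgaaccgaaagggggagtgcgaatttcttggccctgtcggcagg
CD3D (chr11:118342745-118342955, minus strand): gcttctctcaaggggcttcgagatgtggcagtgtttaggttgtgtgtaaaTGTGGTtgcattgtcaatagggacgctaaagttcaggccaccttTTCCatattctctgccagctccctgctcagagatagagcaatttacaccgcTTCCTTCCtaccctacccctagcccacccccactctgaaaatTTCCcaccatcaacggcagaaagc
CD2 (chr1:116754180-116754384, plus strand): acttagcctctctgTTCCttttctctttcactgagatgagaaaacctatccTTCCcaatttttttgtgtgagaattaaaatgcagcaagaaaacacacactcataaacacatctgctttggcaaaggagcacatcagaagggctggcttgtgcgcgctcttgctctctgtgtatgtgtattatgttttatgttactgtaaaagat
LCK distal (chr1:32251015-32251238, plus strand): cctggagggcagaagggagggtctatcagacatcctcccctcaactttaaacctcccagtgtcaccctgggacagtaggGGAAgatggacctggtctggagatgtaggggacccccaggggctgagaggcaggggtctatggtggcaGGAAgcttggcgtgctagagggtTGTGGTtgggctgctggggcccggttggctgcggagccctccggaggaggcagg
LCK proximal (chr1:32273871-32274110, plus strand): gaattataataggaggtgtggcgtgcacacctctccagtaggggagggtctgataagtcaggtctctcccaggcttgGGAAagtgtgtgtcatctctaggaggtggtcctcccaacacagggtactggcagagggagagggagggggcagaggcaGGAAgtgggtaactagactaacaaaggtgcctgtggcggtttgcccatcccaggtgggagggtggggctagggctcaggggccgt
ZAP70 (chr2:97713326-97713559, plus strand): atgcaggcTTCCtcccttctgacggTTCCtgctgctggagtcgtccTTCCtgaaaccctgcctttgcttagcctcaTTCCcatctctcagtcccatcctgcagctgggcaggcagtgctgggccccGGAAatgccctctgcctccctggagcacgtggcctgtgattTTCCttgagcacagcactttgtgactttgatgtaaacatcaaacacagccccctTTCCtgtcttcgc

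GGAA was found in each of these windows of 300 bases (250 before and 50 after the RefSeq start), with 2 matches for CD247, 6 for CD3D, 4 for CD2, 3 and 2 for the distal and proximal windows of LCK, and 9 for ZAP70. It is in 95.5% of the 35116 promoter windows of the table, so its presence sets none of them apart. TGTGGT was found once in the CD3D window and once in the distal LCK window, and it is in 13.1% of all windows. The letters AGATAA of GATA factors and TATAAA of the TATA box, in 10.3% and 11.5% of all windows, were in none of the 6. The motifs searched do not overlap each other, and a match is only a description of the letters. This search could not separate the windows of detected and near-silent genes, since GGAA is in nearly all windows and the windows shown are few. CD3E, CD3G and CD5, the genes not detected, had no window in the promoter table. The gene with the most GGAA matches, ZAP70, had RNA in 1 library only, at 5 counts.

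Levels of different genes were compared on the authors' FPKM, which scale counts by gene length. CD247 was at 7.21 and 6.08 FPKM in shscramble and at 8.45 and 21.1 FPKM in shGOLM1. CD3D was at 1.96 and 1.44 FPKM in shscramble and at 0.573 and 6.52 FPKM in shGOLM1. CD2 was at 1.28 and 1.68 FPKM in shscramble and at 2.94 and 3.35 FPKM in shGOLM1. In shscramble the order was thus CD247 first, then CD3D and CD2, whose values overlap. The ratio of CD247 to CD3D was 3.68 and 4.22 in shscramble and 14.7 and 3.24 in shGOLM1, so the shGOLM1 libraries held the delta and zeta transcripts in very different proportions. The ratio of CD3D to CD2 was 1.53 and 0.856 in shscramble, 0.195 in shGOLM1 replicate 1 and 1.94 in replicate 2. The order of CD3D and CD2 therefore changed between the shGOLM1 libraries.

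**Figure D3:**
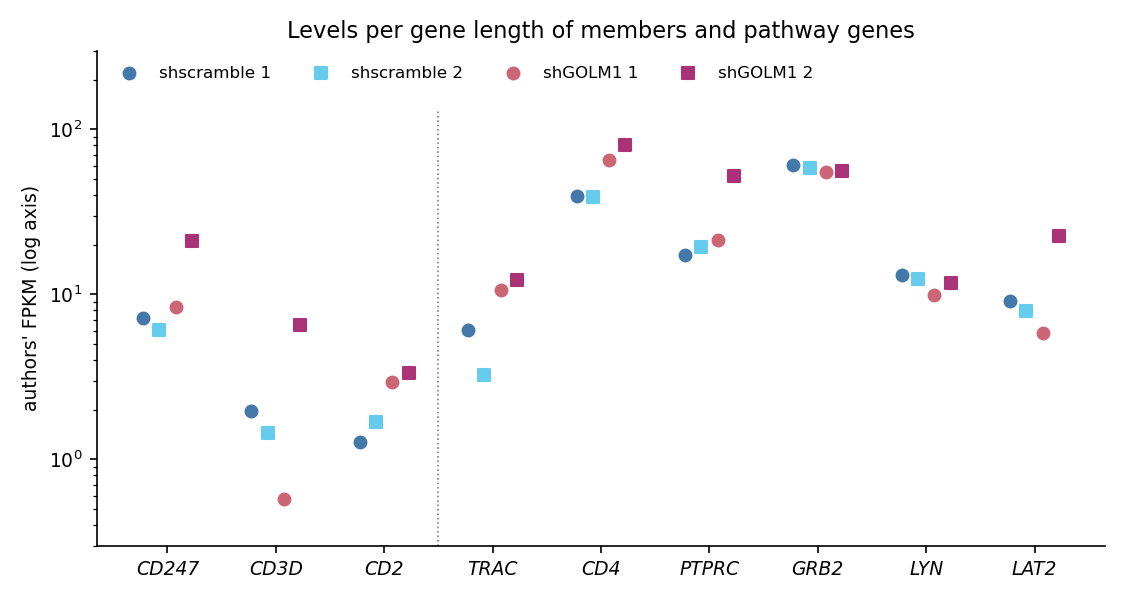
The authors' FPKM on a log axis in each library, for the 3 members at 1 CPM or more (left of the dotted line) and 6 other genes of the pathway. CD4 and GRB2 lie above CD247 in all 4 libraries.

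Of the constant regions of the antigen-binding chains, only TRAC reached 1 CPM. TRAC, the constant region of the alpha chain, had 195 and 106 counts in shscramble and 370 and 280 in shGOLM1, or 6.06, 3.23, 10.6 and 12.2 FPKM. The constant regions of the beta chain (TRBC1, TRBC2), the delta chain (TRDC) and TRGC1 of the gamma chain had 0 counts in all 4 libraries, as did PTCRA, the pre-T alpha chain. TRGC2 had 0 counts in shscramble and 1 and 10 in shGOLM1. TRBC1 and TRBC2 are near-identical copies, as are TRGC1 and TRGC2, and the sources used here do not give how reads matching both were counted. The values of these 4 genes are therefore uncertain, and their counts do not show that the beta or gamma chain was absent. The 45 alpha variable segments held 72, 67, 146 and 104 counts in all in shscramble replicates 1 and 2 and shGOLM1 replicates 1 and 2, and the 49 beta variable segments 50, 43, 89 and 14. The 3 variable segments named for delta alone held 0 in every library. TRAV14DV4, whose name marks it as shared by alpha and delta, was counted with the alpha segments. It had 25, 41, 32 and 31 counts, so use of a delta variable segment is not shown to be absent. The beta segment TRBV9 reached 1 CPM in at least 1 library, with 24, 30, 55 and 8 counts. Variable segments also resemble each other, so counts of single segments are uncertain.

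None of the 9 genes passed the test of shGOLM1 against shscramble. Of the 9, 3 passed the filter on low counts (CD247, CD2 and CD3D), and in edgeR's quasi-likelihood test on all 4 libraries 0 of them had an adjusted p under 0.05 and 0 an unadjusted p under 0.05, where 0.0% and 11.8% of all genes tested did. DESeq2, edgeR's likelihood-ratio test and limma-voom also called 0 of the 3, where they called 3.69%, 3.5% and 0.0% of all genes. With no filter 0 of the 8 members with counts were called, against 0.759% of all genes, and with the replicate number as a block 0 of 3, against 1.43%. Without shscramble replicate 1 or 2 it was again 0, against 0.139% and 0.126%. CD247 averaged 27.1 ± 3.26 CPM (SD, n = 2) in the shscramble pair and 61.4 ± 37.2 CPM (SD, n = 2) in the shGOLM1 pair, a 2.27-fold difference of means. CD2 averaged 2.52 ± 0.481 CPM (SD, n = 2) in the shscramble pair and 5.44 ± 0.511 CPM (SD, n = 2) in the shGOLM1 pair, 2.16-fold higher. CD3D averaged 1.6 ± 0.344 CPM (SD, n = 2) in the shscramble pair and 3.39 ± 4.02 CPM (SD, n = 2) in the shGOLM1 pair. In edgeR's quasi-likelihood test the log2 fold change was 1.18 (SE 0.53) for CD247, with an adjusted p of 0.458. It was 1.11 (SE 0.47) for CD2, at adjusted p = 0.442 in edgeR. For CD3D it was 1.08 (SE 1.19), at adjusted p = 0.71 in edgeR. The authors' deposited table gives log2 fold changes of 1.15, 1.08 and 1.06 for CD247, CD2 and CD3D, with adjusted p of 0.406, 0.533 and 0.744.

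The 2 shGOLM1 libraries gave the same direction for CD247 and CD2 and opposite directions for CD3D. Both shGOLM1 libraries lay above both shscramble libraries for CD247 and CD2, a position that 25.2% of all genes tested shared. With shGOLM1 replicate 1 alone against both shscramble libraries, edgeR called CD247 (log2 fold change 0.36, adjusted p = 0.0429) and CD2 (1.00, adjusted p = 0.0092) higher and CD3D lower (-1.55, adjusted p = 0.0336). This fit called 44.5% of its 15106 genes, 20.4% higher and 24.1% lower. With shGOLM1 replicate 2 alone, edgeR called all 3 higher: CD247 by 1.65 (adjusted p = 1.16e-08), CD2 by 1.15 (adjusted p = 0.00336) and CD3D by 1.92 (adjusted p = 8.75e-05) on the log2 scale. It called 67.4% of its 15268 genes, 33.3% higher. In such a fit the single shGOLM1 library is taken to vary as much as the shscramble pair, so it compares libraries rather than conditions. Calls in opposite directions in the 2 libraries, as for CD3D, were made for 11.3% of all genes tested, and calls higher in both, as for CD247 and CD2, for 9.76%.

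The other 6 genes allow no reading of a change. The fit with no filter on low counts gave 5 of them (CD3E, CD5, LCK, ZAP70 and LAT) adjusted p of 0.766 to 0.795 in edgeR, and CD3G had no counts to fit. Each of these 5 had at most 9 counts in any library, and a difference was not detectable at this depth.

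**Figure D4:**
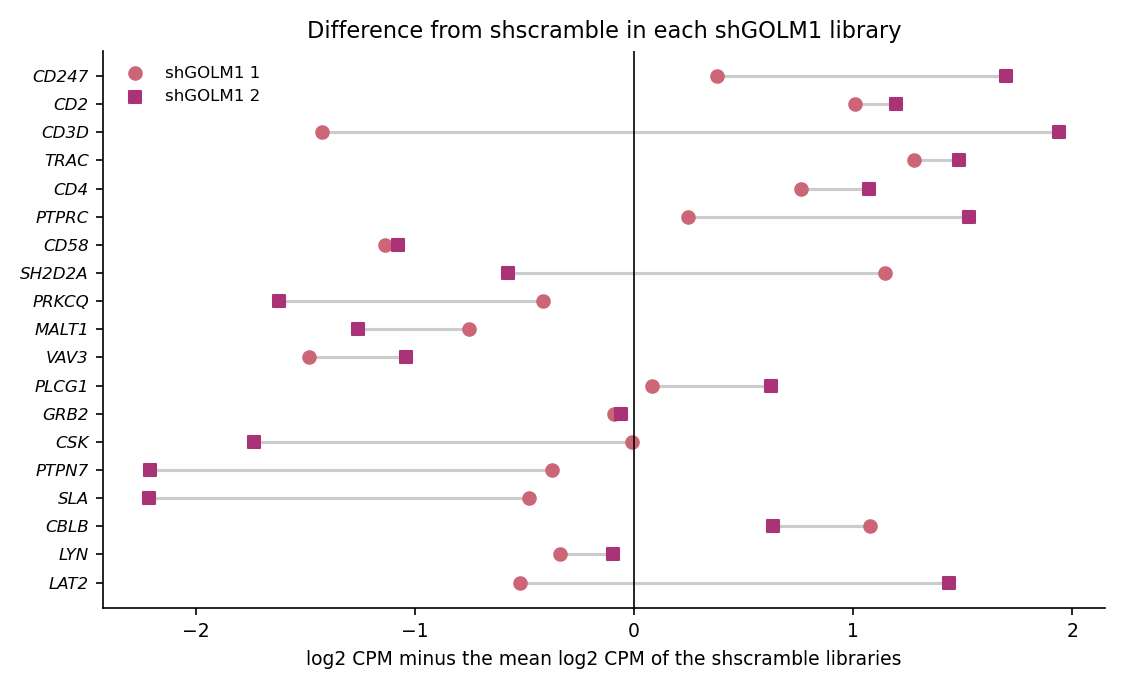
For each gene, the log2 CPM of shGOLM1 replicate 1 (circle) and replicate 2 (square) minus the mean log2 CPM of the shscramble libraries, joined by a grey line. CD247 and CD2 lie right of 0 in both libraries, CD3D lies at -1.42 and 1.94, and MALT1, VAV3 and CD58 lie left of 0 in both.

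Of 16 genes of coreceptors and costimulation, 5 reached 1 CPM in at least 1 library, where 55.2% of all coding genes did. Another 6 were low and 5 were not detected. In edgeR 0 of the 7 tested were called, with a median log2 fold change of 0.40. The medians of the single shGOLM1 libraries against shscramble were 0.24 in replicate 1 and -1.08 in replicate 2, so the direction of this list turned between them. CD4, the coreceptor that brings LCK to the receptor, had 182 and 180 CPM in shscramble against 307 and 380 CPM in shGOLM1. CD8A had 0 counts in every library. PTPRC, the CD45 phosphatase that activates LCK, had 161 and 180 CPM in shscramble against 202 and 491 CPM in shGOLM1. SH2D2A, an adaptor that binds LCK, had 43.1 and 38.6 CPM in shscramble against 90.1 and 27.4 CPM in shGOLM1, on opposite sides of shscramble. On the FPKM scale CD4 was 5.45 and 6.39 times as high as CD247 in shscramble and 7.71 and 3.82 times in shGOLM1.

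Of 26 genes that act downstream of ZAP70 and LAT, 17 reached 1 CPM in at least 1 library, where 55.2% of all coding genes did. Another 5 were low and 4 were not detected, among them GRAP2, SKAP1 and NFATC1. LCP2 reached 1 CPM only in shGOLM1, at 1.01 and 1.49 CPM against 0.0919 and 0.21 CPM in shscramble. In edgeR 0 of the 18 tested passed, and their median log2 fold change was -0.04, beside 0.05 for all genes tested. MALT1, a protease on the way to NF-kB, had 43.8 and 45.8 CPM in shscramble against 26.5 and 18.7 CPM in shGOLM1. VAV3, a guanine nucleotide exchange factor, had 8.37 and 10.3 CPM in shscramble against 3.29 and 4.48 CPM in shGOLM1. PRKCQ, the protein kinase C theta of T cells, had 20.9 and 19.6 CPM in shscramble against 15.2 and 6.55 CPM in shGOLM1. All 3 lay lower in both shGOLM1 libraries, as did 26.5% of all genes tested. The adaptor GRB2 was at 290, 278, 266 and 273 CPM, nearly level over the libraries, and PLCG1, the phospholipase that LAT recruits, was at 43.2, 47.5, 48.0 and 69.8 CPM.

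Negative regulators of receptor signalling were mostly present. Of 18 genes, 14 reached 1 CPM, where 55.2% of all coding genes did, and only SLA2 was not detected. In edgeR 0 of the 15 tested were called. Their median log2 fold change was -0.53, with medians of -0.10 in shGOLM1 replicate 1 and -0.62 in replicate 2. PTPN7, a phosphatase of MAP kinases in blood cells, had 418 and 414 CPM in shscramble against 321 and 90.0 CPM in shGOLM1. SLA, an adaptor that promotes loss of the receptor from the surface, had 225 and 220 CPM in shscramble against 160 and 47.9 CPM in shGOLM1. CSK, the kinase that inhibits LCK, was at 223, 212 and 216 CPM in shscramble replicates 1 and 2 and shGOLM1 replicate 1 and at 65.4 CPM in shGOLM1 replicate 2. DGKA, a kinase that removes the second messenger diacylglycerol, had 17.7 and 16.3 CPM in shscramble against 27.9 and 28.3 CPM in shGOLM1. For PTPN7, SLA and CSK the lowest value was that of shGOLM1 replicate 2, whose mitochondrial share was also lowest, and the part of that library's quality in these values was not tested.

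Kinases and adaptors that do in other blood cells what LCK, ZAP70 and LAT do in T cells were present only in part. Of 15 genes, 5 reached 1 CPM, where 55.2% of all coding genes did, 3 were low and 7 were not detected. In edgeR 0 of the 4 tested were called, with a median log2 fold change of 0.63 (medians of 0.17 and 0.50 in shGOLM1 replicates 1 and 2). Of the Src family, LYN was at 81.5, 77.6, 62.8 and 74.3 CPM in shscramble replicates 1 and 2 and shGOLM1 replicates 1 and 2, and BLK at 12.8, 13.2, 20.9 and 15.9 CPM. FYN, the other Src family kinase of T cells, was low, with 9, 3, 1 and 0 counts. SYK, the relative of ZAP70, had 0 counts in all 4 libraries, as did BTK and FGR. LAT2, a relative of LAT found in B and myeloid cells, had 42.1 and 36.6 CPM in shscramble against 27.3 and 106 CPM in shGOLM1, again on opposite sides of shscramble. TYROBP had at most 1 count in any library. FCER1G, which like CD247 can carry signals for other receptors, had at most 5. Over these lists, an unadjusted p under 0.05 in edgeR was found for 3 coreceptor genes, 3 downstream genes, 2 negative regulators and 0 of the alternative kinases and adaptors (of 7, 18, 15 and 4 tested), where 11.8% of all genes tested had one. DESeq2 and limma-voom called 0 in each of the 4 lists. The likelihood-ratio test of edgeR called 1 coreceptor gene (SH2D1A) and 1 negative regulator (UBASH3A) lower and 1 downstream gene (LCP2) higher. Over all 14166 genes tested it called 62 lower and 434 higher. These calls rest on few counts. SH2D1A had 31, 21, 2 and 0 in shscramble replicates 1 and 2 and shGOLM1 replicates 1 and 2. UBASH3A had 15, 11, 0 and 0, and LCP2 had 3, 7, 35 and 34, in the same order.

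**Figure D5:**
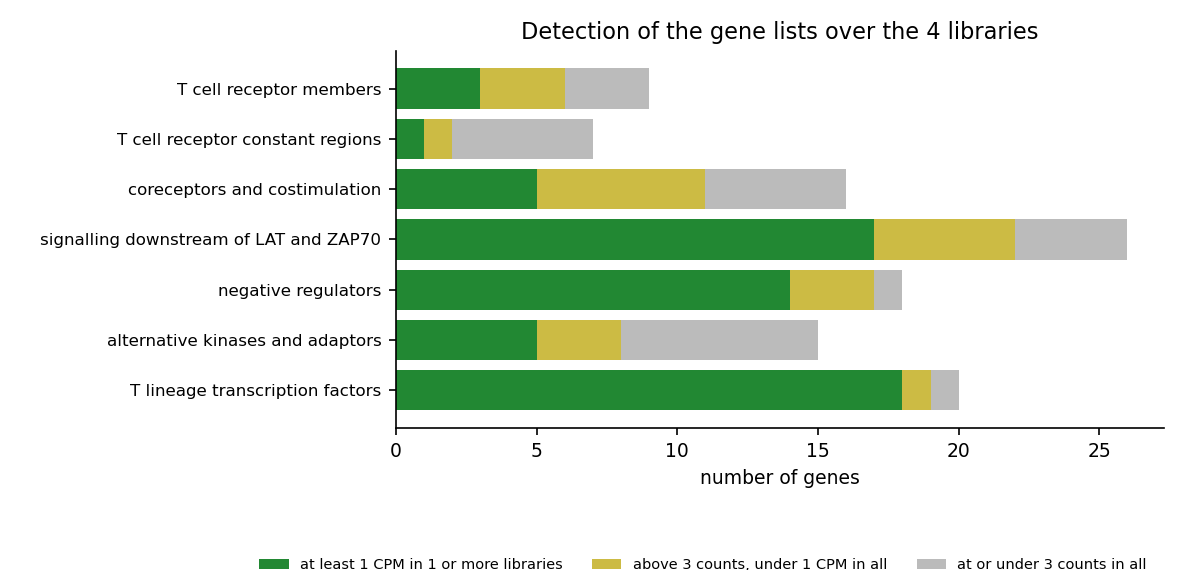
Number of genes in each list by detection. Green genes reached 1 CPM in at least 1 library. Yellow genes exceeded 3 counts in at least 1 library but were under 1 CPM in every library. Grey genes were at or under 3 counts in every library. The receptor members split 3, 3 and 3. Of the transcription factors 18 of 20 and of the downstream genes 17 of 26 reached 1 CPM, where 55.2% of all coding genes did.

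Most natural killer cell markers were not detected, but some cytotoxic genes lay higher in both shGOLM1 libraries, as did 25.2% of all genes tested. Natural killer cells also express CD247 and CD2. Of 7 of their markers, 5 were not detected, with KLRD1, KLRB1 and KLRF1 at 0 counts in every library, and the summed level of the list was 0.215 and 0 CPM in shscramble and 3.55 and 5.1 CPM in shGOLM1. NKG7 had 0.215 and 0 CPM in shscramble against 2.22 and 4.44 CPM in shGOLM1, and NCAM1 had 0 counts in shscramble and 45 and 13 in shGOLM1. DESeq2 called both higher, as it did 3.43% of all genes, and edgeR's quasi-likelihood test called neither. PRF1, the pore-forming protein of natural killer and cytotoxic T cells, which stands in the list of lymphoma markers, had 2.91 and 2.71 CPM in shscramble against 621 and 145 CPM in shGOLM1. DESeq2 called it higher (adjusted p = 3.99e-20), as did edgeR's likelihood-ratio test (adjusted p = 2.17e-09). The quasi-likelihood test of edgeR did so with no filter (adjusted p = 4.57e-05) and with the replicate number as a block (adjusted p = 2.01e-12). With the filter and no block it did not call PRF1 (adjusted p = 0.42), and neither did limma-voom (adjusted p = 0.454). GZMB, a protease of the same granules, had 118 and 86.3 CPM in shscramble against 149 and 20.4 CPM in shGOLM1, on opposite sides of shscramble. Their part in the levels of CD247 and CD2 was not tested. Of 6 B cell markers 4 were not detected, with MS4A1 at 0 counts, and the summed level of 30.7, 31.5, 55.0 and 0.791 CPM was nearly all EBF1. Of 8 myeloid markers 3 were not detected, with S100A8 at 0 counts, and the summed level of 232 to 310 CPM was nearly all CSF1R.

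The genes whose profiles over the 4 libraries were most like those of the 3 detected members came from 9707 genes with a mean of at least 5 CPM. Likeness was the root mean square difference of log2 CPM after each gene's own mean was removed. For CD247 these were FXYD5, RFNG and RPS27L, at differences of 0.05, 0.06 and 0.06. For CD2 they were GPATCH2L, IL31RA and CAMK4, at 0.06, 0.06 and 0.07. For CD3D they were C19orf81, PCGF1 and CIR1, at 0.07, 0.12 and 0.14. With 4 libraries and this many genes, close matches are a description only.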

How the data were processed

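RNA-seq libraries of SUP-M2 were prepared with the SMARTER kit for mRNA, per the labels' protocols. The aligner, the counter and its strand setting were not given in the sources used here. GRCm38 and mm10, both mouse builds, stand in the submitters' processing notes, but all 58735 gene identifiers and their coordinates equal those of GENCODE 29 on human GRCh38. Per the file headers, the deposited counts are unnormalized reads of each gene. FPKM were computed by the authors, scaled by gene length and a library total, and were used only to compare levels between genes. The authors also deposited a mean signal per group, which was not used. Log2 fold changes and p-values (raw and adjusted) deposited by the authors are printed only where their table is named.

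Libraries were grouped by title. Groups were compared by edgeR's quasi-likelihood test (R 4.3.3 with edgeR 4.0.16 and limma 3.58.1), TMM factors, filterByExpr and no covariate, two-sided, with Benjamini-Hochberg adjustment over 14166 genes and a threshold of 0.05. The SE printed beside an edgeR log2 fold change is not an output of edgeR. It is the absolute log2 fold change divided by the square root of the test's F statistic. CPM use TMM-scaled totals, and log2 CPM a prior count of 2. A gene at or under 3 counts in every library was called not detected. One above 3 counts in at least 1 library but under 1 CPM in every library was called low. Alternatives were other scalings and filters, DESeq2 1.42.0, limma-voom, edgeR's likelihood-ratio test, a block by replicate number, and leaving out single libraries. Scripts were tested on simulated data. The rule named the 9 genes and GOLM1, and from each list the 4 genes of highest mean and the 4 of smallest p among those with a mean of at least 1 CPM, besides genes not detected. FYN, TRGC2, NCAM1, FCER1G, TCF7, SH2D1A, UBASH3A, LCP2, GZMB, the variable segments and the neighbouring genes fall outside it and were chosen after their values were seen. Some genes within it are not reported here. The members and lists were chosen with earlier results of these data known. Motif letters were searched on both strands of the RefSeq windows. Figures were drawn with matplotlib 3.10.9.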

Additional observations from a re-analysis of the deposited data

How the results depend on the processing

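The count of genes called in the test of all genes, 0 in edgeR's quasi-likelihood test (1668 at an unadjusted p under 0.05), was also 0 with size factors of the DESeq2 kind, with library totals alone, with at least 5 CPM in 2 libraries and in limma-voom. It was 192 with no filter, 554 in DESeq2 and 496 in edgeR's likelihood-ratio test, and from 20 to 10290 with 1 library left out, highest without shGOLM1 replicate 1 (10290) and without shGOLM1 replicate 2 (6721). The count of the 9 receptor genes called stayed 0 in each of these settings except with a shGOLM1 library left out, where it was 3 without either one, in a range from 0 to 3. CD3D turned to a log2 fold change of -1.55 without shGOLM1 replicate 2, was 1.92 without shGOLM1 replicate 1, and was 0.08 in limma-voom. Of the pathway genes and GOLM1, 0 were called, against 1 with no filter, 5 in DESeq2, 9 in the likelihood-ratio test and 1 to 63 with 1 library left out. The cause was not tested. The number of absent members was 3 at the limit of 3 counts, 1 at 0 counts in every library and 6 at under 1 CPM in every library. The mean ratio of CD247 to CD3D in shscramble was 17.1 in CPM and 3.95 in FPKM, as FPKM also divide by gene length. At this depth a level under about 3 counts per library is not told from 0.

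With the replicate number as a block, edgeR called 203 of 14166 genes (1.43%). It called 0 of the 9 receptor genes, of which 3 were tested, and 3 of the 79 tested among the pathway genes and GOLM1. The blocked log2 fold change was 1.04 for CD247, 1.12 for CD2 and 0.27 for CD3D, with adjusted p of 0.643, 0.773 and 0.983 in edgeR. Nothing in the labels says that a number marks a shared culture or day. The replicate differences of the 2 groups correlated at -0.10 across genes. That value cannot decide the point, since the shGOLM1 libraries differ far more from each other than the shscramble libraries do.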

Other observations

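Of 20 transcription factors of the T lineage, 18 reached 1 CPM in at least 1 library, where 55.2% of all coding genes did. TCF7 was low, with 0 counts in shscramble and 5 and 1 in shGOLM1, and TBX21 was not detected. NOTCH1, the receptor and factor that commits cells to the T lineage, had 173 and 204 CPM in shscramble against 334 and 69.8 CPM in shGOLM1. TCF3, the E protein that with TCF12 acts on receptor genes, had 205 and 196 CPM in shscramble against 150 and 104 CPM in shGOLM1, and TCF12 at 71.9 and 76.3 against 50.8 and 39.2 CPM. Both of these E proteins lay lower in both shGOLM1 libraries, as did 26.5% of all genes tested, with log2 fold changes of -0.66 and -0.72 and adjusted p of 0.48 and 0.44 in edgeR.

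Of the 18 factors tested, edgeR's quasi-likelihood test called 0, with 2 at an unadjusted p under 0.05 (11.8% of all genes tested were), limma-voom called 0, and DESeq2 called TOX and SATB1 higher, where it called 3.43% of 15005 genes higher. TOX, a factor of thymic development and of exhausted T cells, had 0.889 and 0.782 CPM in shscramble against 4.33 and 11.9 CPM in shGOLM1. SATB1, a chromatin organiser of thymocytes, had 6.25 and 6.43 CPM in shscramble against 33.5 and 17.4 CPM in shGOLM1. The log2 fold change was 3.28 (SE 0.71) for TOX and 2.01 (SE 0.47) for SATB1, each with an adjusted p of 0.42 in edgeR. Both genes are those of smallest p in their list. Both shGOLM1 libraries lay above both shscramble libraries for each, as for 25.2% of all genes tested, and each shGOLM1 library taken alone was called higher in edgeR, as for 9.76%.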
